A study of Mus musculus with 12 samples.

Results

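To examine how cells make and handle cholesterol, 28 genes were followed through RNA-Seq libraries labelled as from tumors of carcinogen-exposed and control breast cancer cells. They are 19 enzymes of the route from acetyl-CoA to cholesterol, 4 regulators of the SREBP2 pathway and 5 genes of sterol uptake, transport and storage. Of the 19, Ggps1 sits on a branch of that route and does not itself lead to cholesterol. The genes were taken by gene symbol from a count table of 55202 genes. All 28 were present and passed the filter on low counts, among 11511 genes tested. The 2 tumor cell clones compared descend from the PyMt breast cancer line, each grown from 1 sorted cell, DMBA3-4 after exposure to the carcinogen dimethylbenzanthracene (DMBA) and DMSO3-1 after exposure to its vehicle DMSO. Each exposure is therefore represented by 1 clone, and clone and exposure cannot be told apart. Both clones grew as tumors in Rag1-/- mice, which lack T and B cells, and the samples are labelled as macrophages sorted from those tumors, DMBA3-4 TAM in 6 libraries and DMSO3-1 TAM in 6 libraries. The age of the mice was not given in the sources used here. Whether the libraries of a group came from different mice is not stated, and p-values therefore measure only how these samples vary, a spread that could be technical.

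Cholesterol is assembled in the endoplasmic reticulum. Acetyl-CoA is turned into mevalonate and then into isoprenoid units, these are joined into squalene, and squalene is closed into lanosterol and trimmed to cholesterol. SREBP2 is the transcription factor that turns on most of these genes when membrane sterol is low. SCAP escorts it to the Golgi, where proteases release its active part, and the INSIG proteins hold SCAP back when sterol is plentiful. Macrophages also take up cholesterol in lipoproteins and debris, export it from lysosomes through NPC1 and NPC2, and store it as esters.

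Total counts ranged from 3040452 to 4632817 (median 3894211) in the DMBA3-4 libraries and from 2752005 to 3978901 (median 3412861) in the DMSO3-1 libraries. Transcripts of the surface proteins used for sorting were at or near 0. Ptprc (CD45) had 0 to 7 counts in a library, and neither Itgam (CD11b) nor Adgre1 (F4/80) had more than 3, so DMBA3-4 and DMSO3-1 are used below as library labels and not as evidence of a macrophage origin. The 20 listed macrophage genes together took 0.00810% to 0.0124% of counts in the DMBA3-4 libraries and 0.00688% to 0.00973% in the DMSO3-1 libraries, while they take 5.55% of the authors' mean normalized counts in a separate deposited table. Epithelial genes took 0.152% to 0.215% and 0.100% to 0.173%, nearly all of it from Krt8 (1211 to 4118 counts per library) and Krt18 (2267 to 5828), with Epcam at 0 counts in every library. Fibroblast genes took 0.114% to 0.199% and 0.176% to 0.239%. Most of this came from Col3a1 (965 to 3669 counts per library), Pdgfrb (756 to 3359), Dcn (477 to 1725) and Postn (583 to 1621). Other genes of that list were scarce, with Thy1 at 0 to 1, Col1a2 at 0 to 4 and Col1a1 at 11 to 44 counts. Endothelial, adipocyte and natural killer cell genes took 0.000881% or less in every library. In the separate table, the epithelial genes take 0.00397% and the fibroblast genes 0.00357% of the authors' mean normalized counts, less than in any library here. The deposited tables thus differ in cell-type content in both directions. A mean of these counts, with each library scaled as a whole, would have shares within the range of the libraries. The authors' means therefore were not obtained by scaling and averaging these counts, and which libraries lie behind them was not tested. The fold changes below describe the count table only. DMSO3-1 replicates 1 and 6 stood apart from the rest of their group, at -40.7 and -41.1 on the first principal component (72.4% of the variance) against -69.3 to -62.0. Levels are counts scaled to library size by TMM (CPM), and differences are log2 fold changes of DMBA3-4 over DMSO3-1 with their standard error (SE), from edgeR's robust quasi-likelihood test with Benjamini-Hochberg adjusted p over all tested genes. The labels name no batch, so none was fitted. A gene is said to have risen or fallen where that adjusted p was under 0.05.

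Most cholesterol synthesis genes were lower in the DMBA3-4 libraries, in each part of the route. Of the 28 genes, 21 fell, 1 rose and 6 did not pass the test, while 30.2% of all tested genes fell and 29.9% rose. The 6 DMBA3-4 libraries all lay below the 6 DMSO3-1 libraries for 17 of the 28, against 15.2% of all tested genes, and all lay above them for 1, against 17.0%. The fall reached a log2 fold change of -1 in 16 of them (14.6% of all tested genes) and of -2 in 8 (4.33%). The median log2 fold change was -1.22 over the 28 genes and 0.00 over all tested genes. In bulk RNA, fewer cells of a type and less RNA per cell cannot be told apart.

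**Figure D1:**
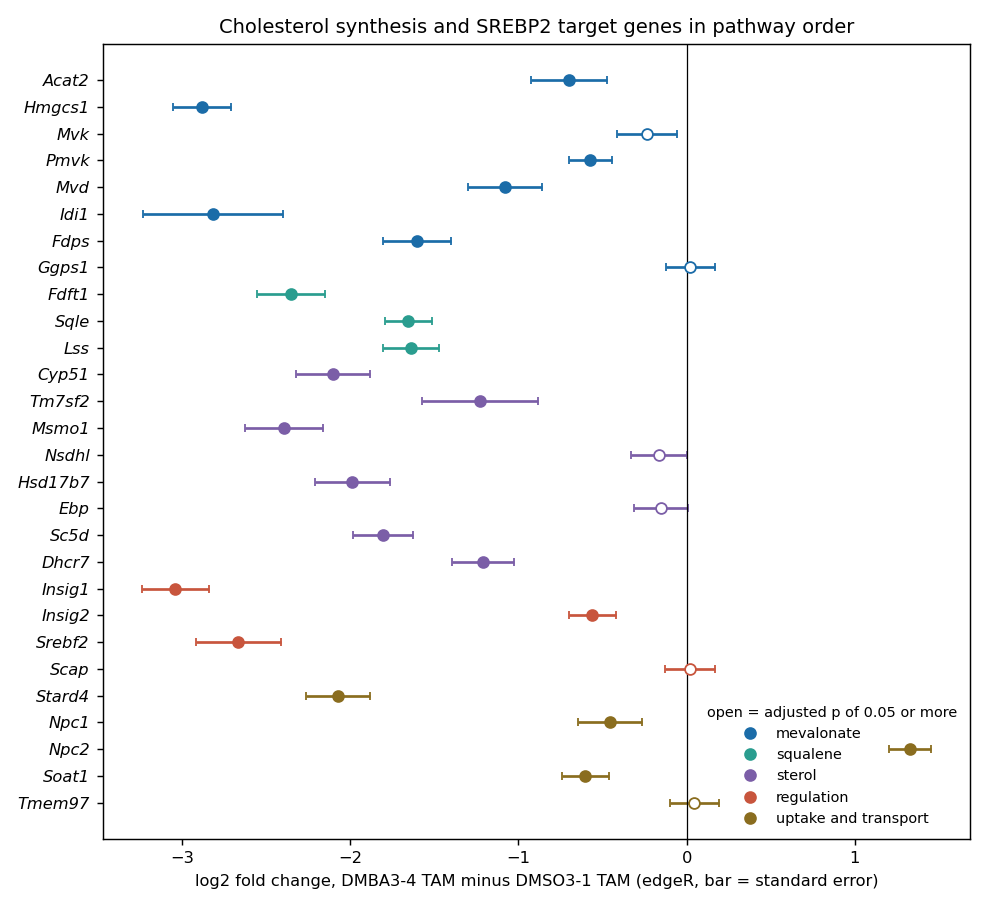
Log2 fold change of DMBA3-4 over DMSO3-1 for the 28 genes in pathway order, with the standard error as the bar, and open circles where the adjusted p was 0.05 or more. Filled circles lie left of 0 for 21 genes, and Npc2 at 1.33 is the filled circle on the right.

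**Figure D2:**
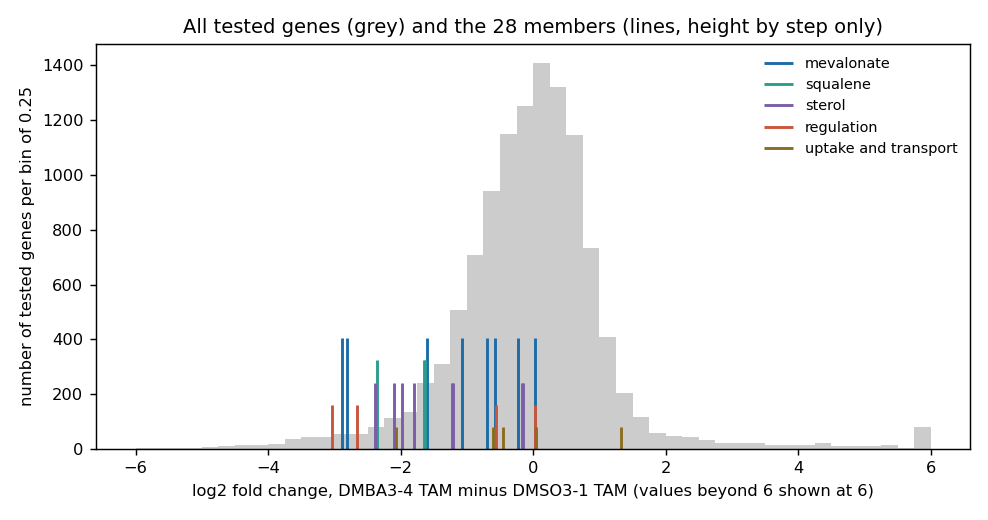
Number of tested genes by log2 fold change in bins of 0.25 (grey, all 11511 genes) with the 28 genes as lines, whose height marks their step and no value. The grey distribution is centred near 0.00, and the median of the 28 lines is -1.22.

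Summed over the 19 enzymes, the level was 399 to 587 CPM (median 411) in the DMBA3-4 libraries and 1167 to 1364 CPM (median 1272) in the DMSO3-1 libraries. The groups did not overlap. Of the 19 enzymes 15 fell (30.2% of all tested genes), 13 of them with no overlap between groups (15.2%), and 4 did not pass the test. By step, 6 of 8 mevalonate and isoprenoid enzymes fell (median log2 fold change -0.89), beside the same 30.2% of all tested genes. So did 3 of 3 squalene enzymes (-1.66) and 6 of 8 enzymes of the sterol steps (-1.52). The fold changes within a step were uneven, and each step from mevalonate to sterol held a gene that fell by more than 2 on the log2 scale.

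In the mevalonate arm, Hmgcs1, which encodes the synthase that commits acetoacetyl-CoA to the pathway, had the largest fall of the 19 enzymes. The gene lies at chr13:119690379-119708260 on the plus strand of GRCm38. Its level was 21.9 to 47.5 CPM (median 25.9) in the DMBA3-4 libraries and 209 to 258 CPM (median 220) in the DMSO3-1 libraries. The groups were far apart, and the means were 30.4 ± 9.88 and 225 ± 18.4 CPM (SD, n = 6 each). The difference was 7.38-fold (log2 fold change -2.88, SE 0.17, adjusted p = 1.9e-09). Acat2, the cytosolic thiolase of the preceding step, had 5.44 to 18.1 CPM (median 10.5) against 15.8 to 19.8 CPM (median 17.7). DMBA3-4 replicate 5 lay inside the DMSO3-1 range for Acat2, and the fall was smaller (log2 fold change -0.70, SE 0.23, adjusted p = 0.0141). Without DMSO3-1 replicates 1 and 6 the call was lost for Acat2 (log2 fold change -0.61, adjusted p = 0.0519).

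The kinases that phosphorylate mevalonate moved little. Mvk, mevalonate kinase, did not pass the test (log2 fold change -0.23, 95% interval -0.61 to 0.14, adjusted p = 0.267), with 10.5 to 17.97 CPM and 13.2 to 19.0 CPM. Pmvk, the kinase that follows it, had 23.0 to 30.1 CPM (median 24.3) in DMBA3-4 and 34.3 to 42.6 CPM (median 38.7) in DMSO3-1. Its groups did not overlap, with a log2 fold change of -0.57 (SE 0.13, adjusted p = 0.00114). Mvd, the decarboxylase that makes isopentenyl diphosphate, had 6.25 to 11.6 CPM (median 8.75) against 11.7 to 23.3 CPM (median 19.2). The ranges of Mvd nearly touched without overlapping, and it fell by 1.08 on the log2 scale (adjusted p = 5.59e-04).

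Downstream, Idi1, which isomerises isopentenyl diphosphate, was the gene of the 28 with the fewest counts. It had 1 to 7 counts per DMBA3-4 library and 14 to 35 per DMSO3-1 library, or 0.211 to 1.73 CPM (median 0.875) and 4.11 to 9.67 CPM (median 6.50). The difference was 7.04-fold with a wide error (log2 fold change -2.81, SE 0.41, adjusted p = 3.5e-05). Fdps, which joins the units into farnesyl diphosphate, had 3.96 to 8.42 CPM (median 6.68) against 15.8 to 24.9 CPM (median 18.2). It fell 3.04-fold (log2 fold change -1.60, adjusted p = 8.64e-06), in every DMBA3-4 library relative to every DMSO3-1 library. Fdps shares long stretches of near-identical sequence with other entries, among them Gm3571 (98.9% over 1062 bases, 10 to 72 counts per library), so the split of reads between them is uncertain. Ggps1 sits on a branch, making geranylgeranyl diphosphate for protein prenylation, and did not pass the test (log2 fold change 0.02, 95% interval -0.28 to 0.33, adjusted p = 0.908).

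All 3 genes of the squalene steps fell with no overlap between groups. Fdft1, squalene synthase, had 12.4 to 31.8 CPM (median 16.04) in the DMBA3-4 libraries and 72.3 to 105 CPM (median 97.8) in the DMSO3-1 libraries. It fell 5.11-fold (log2 fold change -2.35, SE 0.20, adjusted p = 1.48e-07). Its exons share 774 bases with Ctsb on the opposite strand (3189 to 5386 counts of Ctsb per library), and whether counting used strand is not given in the sources used here. Fdft1 also has a near-identical copy, Gm6781 (97.4% over 1249 bases, 0 to 11 counts per library). Sqle, squalene epoxidase, the first oxygen-requiring step, had 37.9 to 65.0 CPM (median 48.3) against 126 to 193 CPM (median 153). Its means were 48.9 ± 9.71 and 154 ± 22.2 CPM (SD, n = 6 each), a 3.15-fold difference (log2 fold change -1.66, SE 0.14, adjusted p = 1.31e-07). Lss, which closes the ring of lanosterol, had 12.6 to 22.4 CPM (median 19.3) against 44.4 to 75.4 CPM (median 55.6). Its fall was 3.11-fold (log2 fold change -1.64, adjusted p = 9.48e-07), close to that of Sqle.

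**Figure D3:**
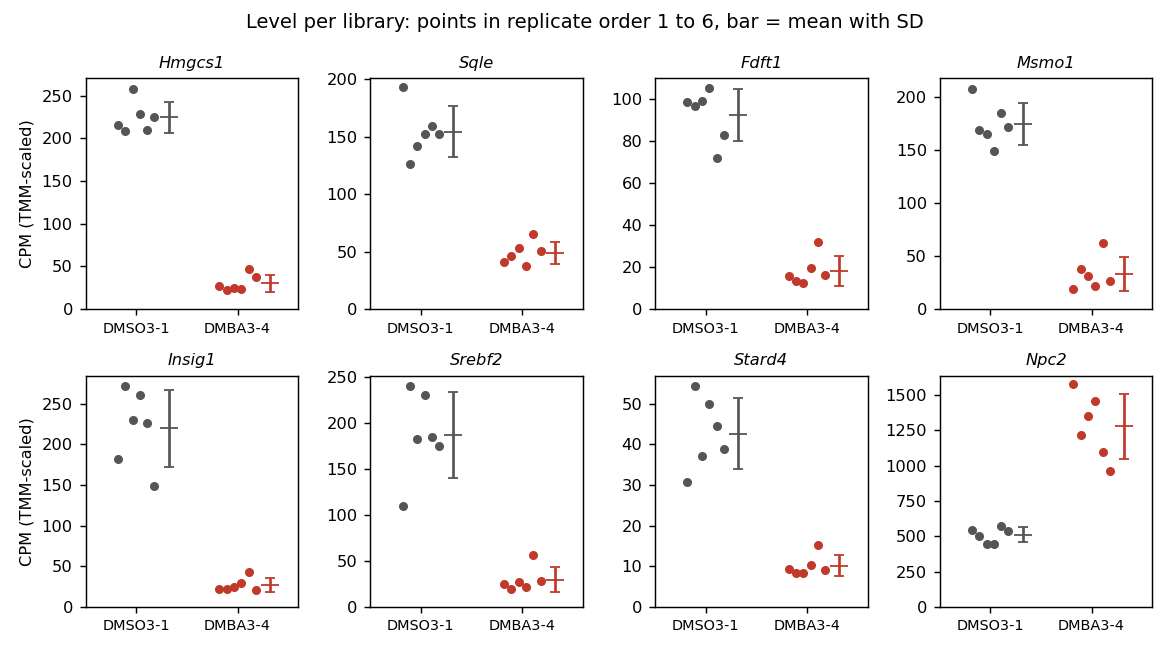
Level in CPM of 8 of the genes in each library, by group, with points in replicate order and the group mean with SD at the right. The 6 DMBA3-4 points lie below the DMSO3-1 points in 7 panels and above them for Npc2, and DMBA3-4 replicate 5 is the highest DMBA3-4 point in those 7.

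The sterol steps divided. Cyp51, the demethylase that acts first on lanosterol, had 16.4 to 52.9 CPM (median 23.4) in DMBA3-4 and 99.8 to 130 CPM (median 119) in DMSO3-1, with a log2 fold change of -2.10 (SE 0.22, adjusted p = 1.37e-06). Msmo1, the monooxygenase that removes methyl groups from the sterol ring, had 19.2 to 62.6 CPM (median 28.8) against 149 to 208 CPM (median 170). It fell 5.25-fold (log2 fold change -2.39, SE 0.23, adjusted p = 8.31e-07). For both genes the highest DMBA3-4 library was replicate 5, and it was still below the lowest DMSO3-1 library.

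Nsdhl and Hsd17b7 act with Msmo1 in the same demethylation, and they differed from each other. Hsd17b7, the ketosteroid reductase, had 6.40 to 17.3 CPM (median 9.50) against 36.2 to 54.1 CPM (median 45.4) and fell 3.96-fold (log2 fold change -1.99, adjusted p = 2.63e-06). Nsdhl, the dehydrogenase, had 19.8 to 37.2 CPM against 25.9 to 43.8 CPM and did not pass the test (log2 fold change -0.16, 95% interval -0.52 to 0.19, adjusted p = 0.409). Ebp, the isomerase that shifts the ring double bond, did not pass it either (log2 fold change -0.15, 95% interval -0.49 to 0.18, adjusted p = 0.421). Nsdhl and Ebp are the 2 of the 28 genes on chromosome X, a shared position noticed after their values were seen.

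Sc5d, the desaturase after Ebp, had 17.6 to 39.1 CPM (median 22.7) in DMBA3-4 and 74.7 to 106 CPM (median 88.6) in DMSO3-1, a 3.49-fold fall (log2 fold change -1.80, adjusted p = 7.72e-07). Dhcr7, the reductase that completes cholesterol from its last precursor, had 13.3 to 22.5 CPM (median 19.2) against 30.4 to 61.4 CPM (median 41.2). The groups stayed apart for Dhcr7, with a log2 fold change of -1.21 (SE 0.18, adjusted p = 4.72e-05). Tm7sf2, a sterol reductase, was scarce, at 0.984 to 5.44 CPM (median 2.61) against 4.29 to 11.3 CPM (median 6.96). Its ranges overlapped, and it fell by 1.23 on the log2 scale (SE 0.35, adjusted p = 0.00608). Tm7sf2 shares 532 bases of exon with Vps51, which had 139 to 335 counts per library against 4 to 31 for Tm7sf2, so reads there could belong to either.

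Among the regulators, Insig1 had the largest fall of all 28 genes, and Srebf2, the gene of SREBP2 itself, fell as well. On GRCm38 they lie on the plus strands of chr5:28071363-28078662 and chr15:82147181-82205379. Insig1, which retains SCAP in the endoplasmic reticulum and is a classical SREBP2 target, had 21.3 to 42.6 CPM (median 22.8) in DMBA3-4 and 148 to 271 CPM (median 228) in DMSO3-1. The means were 26.8 ± 8.42 and 220 ± 47.1 CPM (SD, n = 6 each), an 8.22-fold difference (log2 fold change -3.04, SE 0.20, adjusted p = 7.33e-09). Srebf2 had 19.7 to 56.1 CPM (median 25.7) against 110 to 240 CPM (median 184). It fell 6.34-fold (log2 fold change -2.66, SE 0.25, adjusted p = 7.88e-07), with means of 29.5 ± 13.4 and 187 ± 46.7 CPM (SD, n = 6 each). The lowest DMSO3-1 library was replicate 6 for Insig1 and replicate 1 for Srebf2, and both still exceeded every DMBA3-4 library.

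Insig2, the paralog of Insig1, changed much less. It had 61.8 to 96.6 CPM (median 75.1) against 96.3 to 148 CPM (median 109), with ranges that just met and a log2 fold change of -0.56 (SE 0.14, adjusted p = 0.00266). Its call was lost when DMSO3-1 replicates 2 to 5 were left out (log2 fold change -0.42, adjusted p = 0.0612). Scap, which escorts SREBP2, did not pass the test (log2 fold change 0.02, 95% interval -0.30 to 0.34, adjusted p = 0.914), with 53.0 to 79.4 CPM and 47.2 to 81.9 CPM.

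The genes of sterol transport and storage moved in both directions. Stard4, a cytosolic sterol carrier, had 8.42 to 15.1 CPM (median 9.25) in DMBA3-4 and 30.8 to 54.5 CPM (median 41.6) in DMSO3-1, a 4.20-fold fall (log2 fold change -2.07, SE 0.19, adjusted p = 2.92e-07). Soat1, which esterifies cholesterol for storage, had 37.8 to 61.8 CPM (median 49.5) against 61.9 to 92.5 CPM (median 75.1). Its ranges nearly touched, and the log2 fold change was -0.60 (SE 0.14, adjusted p = 0.00163). Tmem97, a membrane protein that binds NPC1, did not pass the test (log2 fold change 0.05, 95% interval -0.26 to 0.36, adjusted p = 0.799).

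The lysosomal exporters NPC1 and NPC2, which hand cholesterol on to each other, did not move together. Npc2 had the highest level per kilobase of the 28 and was the one that rose (chr12:84754562-84773152, minus strand), at 965 to 1578 CPM (median 1287) in DMBA3-4 and 446 to 576 CPM (median 519) in DMSO3-1. Every DMBA3-4 library exceeded every DMSO3-1 library, and the rise was 2.51-fold (log2 fold change 1.33, SE 0.12, adjusted p = 3.94e-07). Npc1 had 24.1 to 32.9 CPM against 24.2 to 51.4 CPM, with an adjusted p just under the threshold (log2 fold change -0.46, SE 0.19, adjusted p = 0.0479). DMSO3-1 replicates 1 and 6 each had 24.2 CPM of Npc1 and the other DMSO3-1 libraries 42.9 to 51.4 CPM. With replicates 1 and 6 as the DMSO3-1 libraries the log2 fold change was 0.16 (adjusted p = 0.528), and the call of Npc1 was lost in 15 of 23 alternatives.

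**Figure D4:**
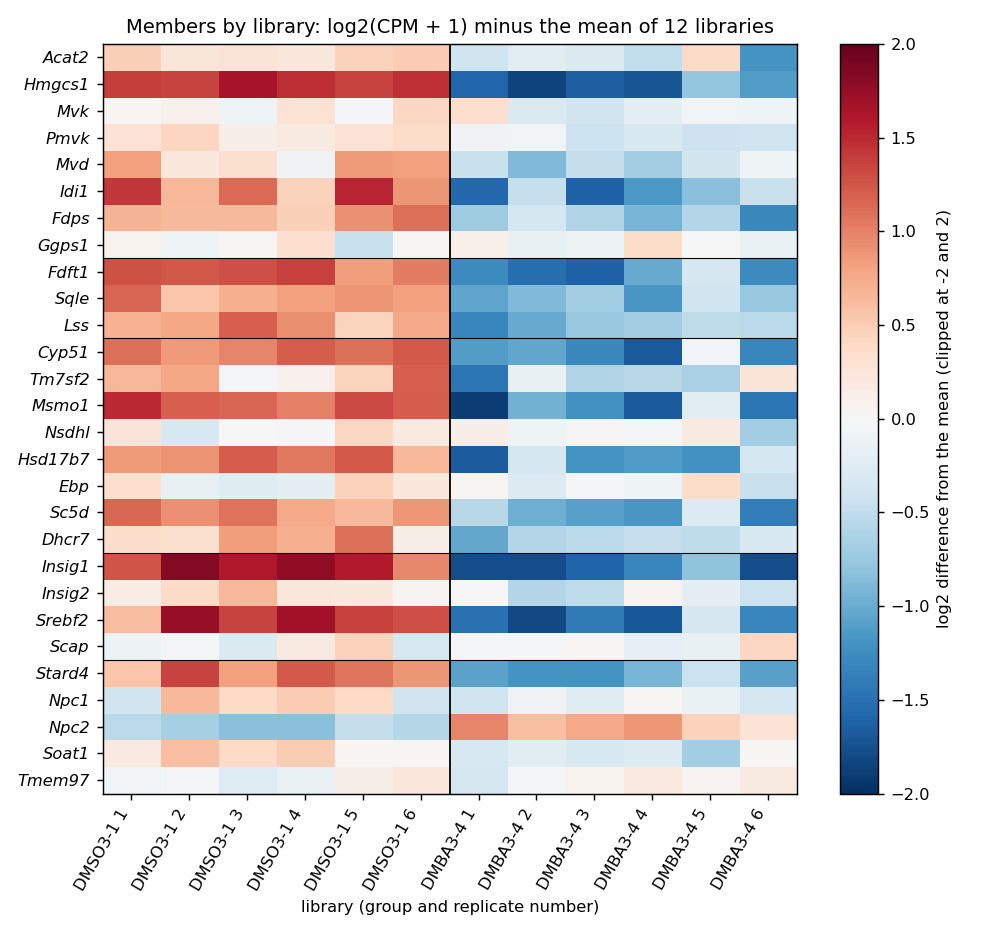
Log2(CPM + 1) of each of the 28 genes in each of the 12 libraries, minus that gene's mean over the 12, with red above and blue below the mean and lines between the steps. The upper rows change from red to blue between the groups, apart from pale rows such as Mvk, Ggps1, Nsdhl and Ebp, and Npc2 changes the other way.

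Some counts share sequence with other genes. Acat2, Idi1, Ggps1 and Tmem97 have near-identical copies (Acat3, Gm13502, Gm5630 and Gm5809), each with at most 7 counts per library. For Idi1 this is as many as its own counts in the DMBA3-4 libraries, and Gm13502 is identical to it over 684 bases, so the 7.04-fold difference of Idi1 depends on how reads were assigned between them. Part of the exons of Hmgcs1 (557 bases), Idi1 (323), Ggps1 (257), Lss (381), Cyp51 (166), Scap (985) and Npc1 (601) is overlapped by a gene on the opposite strand, and reads of such pairs cannot be told apart where counting ignores strand.

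Per kilobase of exon, the order of levels also differed between the groups. The length used is that of the merged exons of all annotated transcripts of a gene. It can exceed that of a single transcript, as for Fdps (4208 bases against a transcript of 1382), so the order across genes depends in part on annotation. In DMSO3-1 the levels per kilobase were highest for Npc2 (93.7 ± 9.9 CPM, SD, n = 6), Insig1 (71.0 ± 15) and Hmgcs1 (48.9 ± 4.0). They were followed by Insig2 (32.9 ± 5.4), Ebp (29.7 ± 6.3), Msmo1 (28.4 ± 3.2) and Sqle (27.8 ± 4.0). From Insig2 to Sqle, neighbours in this order overlapped in their mean ± SD. In DMBA3-4 they were highest for Npc2 (235 ± 42), Ebp (26.8 ± 5.4), Insig2 (22.4 ± 4.2), Tmem97 (16.1 ± 2.1) and Pmvk (15.1 ± 1.9). There the mean ± SD of Ebp and Insig2 overlapped, as did those of Tmem97 and Pmvk. In the same libraries Insig1 had 8.67 ± 2.7 CPM per kilobase and Hmgcs1 6.62 ± 2.2. Insig1 thus stood above Insig2 in the DMSO3-1 libraries and below it in the DMBA3-4 libraries.

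DMBA3-4 replicate 5 departed least from the DMSO3-1 libraries. Over the 21 genes that fell, its summed level was 673 CPM against 465 to 498 CPM in the other DMBA3-4 libraries and 1643 to 1873 CPM in DMSO3-1. It was the highest of its group for 11 of the 21. On the first principal component of all tested genes it lay at 32.4, and the other DMBA3-4 libraries at 47.4 to 70.1. Without it Hmgcs1 had a log2 fold change of -3.05, Insig1 of -3.21 and Srebf2 of -2.94. Proliferation genes also moved with the groups, at 0.118% to 0.163% of counts in DMBA3-4 and 0.0929% to 0.115% in DMSO3-1, with 10 of 15 higher and 2 lower (29.9% and 30.2% of all tested genes). Their part in the fall of the sterol genes was not tested.

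Promoters are shown for the genes that fell by more than 2 on the log2 scale and had an entry in the promoter table, since they hold the sequences through which SREBP2 and its partner NF-Y are known to act. RefSeq promoters on GRCm38.p6, from 250 bases before to 50 after the start of transcription, matched 23 of the 28 genes by symbol. Sqle, Fdft1, Stard4, Npc1 and Fdps had no entry. Both strands were searched for TCACNCCAC, a form of the sterol regulatory element, and for CCAAT, the core of the NF-Y box, which do not overlap in the sequences below. Counted per gene with an entry, TCACNCCAC was found in 1 of 23, Hmgcs1, beside 1.44% of all genes and 1.35% of tested genes. CCAAT was found in 21 of 23 genes, beside 41.1% of all genes and 43.2% of tested genes. Counted per promoter, the shares of all 32851 promoters were 1.24% and 37.4%. It was present in 15 of 16 genes that fell and in 6 of 7 others, Mvk with 5 matches among them. A match is a description of the letters and not evidence of binding. The 250 bases before the start of Hmgcs1 (chr13:119690101-119690350, plus strand) hold the sterol element at 137 bases before the start and 3 NF-Y boxes in reverse orientation (ATTGG), in capitals.
Hmgcs1 promoter: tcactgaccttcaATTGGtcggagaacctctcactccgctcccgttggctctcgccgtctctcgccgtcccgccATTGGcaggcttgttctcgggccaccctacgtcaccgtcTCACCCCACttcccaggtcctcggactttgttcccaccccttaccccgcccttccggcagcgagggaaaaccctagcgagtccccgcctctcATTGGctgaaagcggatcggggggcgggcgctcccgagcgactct

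The NF-Y boxes nearest before the start are set beside each other for Insig1, Idi1, Srebf2, Msmo1 and Cyp51, each of which fell by more than 2 on the log2 scale, and for Mvk, which did not pass the test. They lie at 216, 14, 135, 55, 29 and 14 bases before the start, in windows at chr5:28071180-28071216 (plus strand), chr13:8885576-8885612 (plus), chr15:82147118-82147154 (plus), chr8:64733613-64733649 (minus), chr5:4104706-4104742 (minus) and chr5:114444239-114444275 (plus). Each is written in the direction of its gene with 16 bases on either side and the box in capitals, as CCAAT or as its reverse complement ATTGG. The box was thus present whether or not the gene fell.
Insig1: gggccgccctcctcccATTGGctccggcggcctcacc
Idi1: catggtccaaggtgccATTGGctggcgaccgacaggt
Srebf2: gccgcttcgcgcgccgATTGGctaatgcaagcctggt
Msmo1: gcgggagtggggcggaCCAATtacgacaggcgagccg
Cyp51: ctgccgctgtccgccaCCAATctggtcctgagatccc
Mvk: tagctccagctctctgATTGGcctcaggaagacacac

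Of 40 other genes of the pathway, 39 were in the count table and 34 were tested, of which 11 rose and 5 fell, against 29.9% and 30.2% of all tested genes (median log2 fold change 0.10 against 0.00). These counts cover only the genes reported here, and neither they nor the counts by list below are read as a result about a list. Lbr, a nuclear envelope protein with the same sterol reductase activity as Tm7sf2, had 22.6 to 60.4 CPM (median 30.8) in DMBA3-4 and 87.8 to 115 CPM (median 95.7) in DMSO3-1. It had no DMBA3-4 library within the DMSO3-1 range and fell by 1.55 on the log2 scale (SE 0.19, adjusted p = 7.17e-06). Of the proteases that activate SREBP2, Mbtps2 fell, with 10.6 to 15.1 CPM (median 13.8) against 21.7 to 60.4 CPM (median 49.8) and a log2 fold change of -1.68 (SE 0.24, adjusted p = 2.58e-05). With DMSO3-1 replicates 2 to 5 left out this was -0.82 (adjusted p = 0.00756). The other protease, Mbtps1, rose by 0.29 on the log2 scale with overlapping groups (adjusted p = 0.0122). Srebf1, the gene of SREBP1, rose by 0.55 (adjusted p = 0.0012). It had 203 to 293 CPM against 132 to 195 CPM, with no overlap between groups. Mbtps1 and Srebf1 are the remaining 2 of the list of 3 SREBP processing genes, named after their values were seen.

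Beside 29.9% of all tested genes, 3 of 6 tested genes of sterol-regulated degradation rose, the largest rise being that of Mylip, a ubiquitin ligase induced by sterol. It had 47.2 to 74.8 CPM (median 53.0) in DMBA3-4 against 18.3 to 34.3 CPM (median 24.7), with a log2 fold change of 1.18 (SE 0.17, adjusted p = 2.42e-05). Ch25h, which makes the signalling oxysterol 25-hydroxycholesterol and is known as an interferon-induced gene, was the 1 of 4 oxysterol enzymes with enough counts to be tested. It had 5.53 to 13.0 CPM (median 7.72) against 0 to 1.79 CPM (median 1.07), or 23 to 53 counts per DMBA3-4 library and 0 to 5 per DMSO3-1 library. Ch25h rose by 2.998 on the log2 scale (SE 0.40, adjusted p = 1.26e-05), a size that rests on counts near 0 in DMSO3-1.

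Of 9 tested genes of intracellular sterol transport 3 rose and 1 fell (29.9% and 30.2% of all tested genes). Gramd1b, which carries cholesterol from the plasma membrane inward, had 14.8 to 32.9 CPM (median 25.4) against 4.23 to 17.6 CPM (median 9.02), with overlapping groups (log2 fold change 1.28, SE 0.31, adjusted p = 0.0020). Of 10 genes that use isoprenoids for prenyl products 2 rose and 0 fell, and of 3 electron donors to the sterol enzymes 2 fell, beside the same shares of all tested genes.

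**Figure D5:**
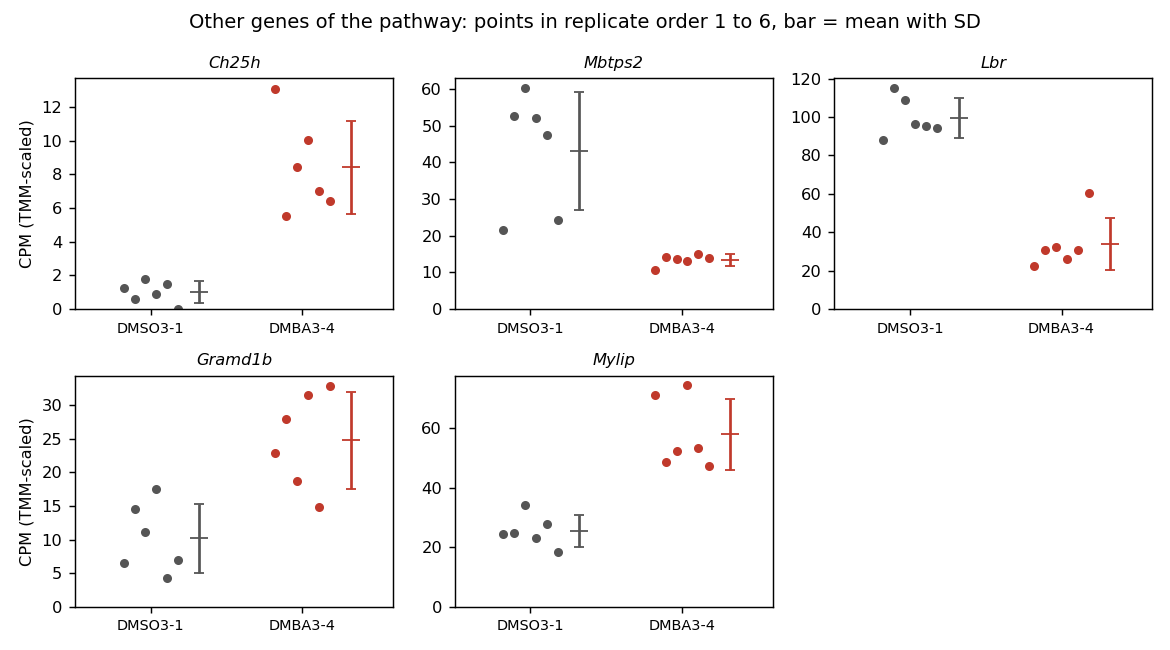
Level in CPM of 5 other genes of the pathway, those past the threshold with a log2 fold change of 1 or more in size, in each library by group, with the group mean and SD at the right. DMBA3-4 points lie below all DMSO3-1 points for Mbtps2 and Lbr and above them for Ch25h and Mylip, and Gramd1b overlaps.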

How the data were processed

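RNA-Seq was measured in 12 libraries, 6 per group, assigned by the treatment in the sample labels. The authors deposited raw counts per gene as whole numbers, and the submitters' processing notes name the build GRCm38 (mm10), whereas neither aligner nor counting program is given in the sources used here. In the labels, the protocol is column-purified RNA and a SMARTER mRNA kit, and the paper's methods describe SmartSeq2. A second deposited table holds the authors' mean normalized count per gene (a signal pooled over libraries, under the column name DESeq2 uses), with the authors' own fold changes and p-values, which were not used.

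The members and lists were chosen with earlier results of these data known. Entries named by a number (19, taking 0.0893% to 0.128% of counts) were left out. Genes passing filterByExpr were scaled by TMM and tested, two-sided, with edgeR 4.0.16 in R 4.3.3 (robust quasi-likelihood, Benjamini-Hochberg adjustment). The script was tested on simulated data. Values per library are given for members past the threshold of 0.05 with an absolute log2 fold change of 0.5 or more and for Hmgcs1, Sqle, Insig1 and Srebf2, and other pathway genes were named at 1 or more, at most 8 by size. No pair of libraries of a group matched within sampling noise (lowest chi-square per gene 2.65). Some pairs lay much closer than others. DMBA3-4 replicates 2 and 3 had the value of 2.65 and replicates 1 and 4 had 5.36, with up to 22.6 in that group. DMSO3-1 replicates 2 and 4 had 4.16 and replicates 1 and 6 had 4.92, with up to 34.0 in that group. Whether close pairs are related libraries was not tested, and the fit treated all 6 of a group as independent. Exon lengths and coordinates are from GENCODE M21, promoters from RefSeq, and near copies from a blastn search of the transcripts. DESeq2 1.42.0, limma-voom (limma 3.58.1), edgeR without robust estimation, 3 further scalings, no filter, a threshold of 0.01, a replicate block (6481 genes called) and leaving out libraries served as alternatives. Some genes of the pathway are not reported here.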

Additional observations from a re-analysis of the deposited data

Results flagged for a closer look

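In each of the 28 genes and both groups, 56 sets of 6 libraries in all, the highest and lowest library were compared with the rest, and about 1 set in 20 is marked by chance. DMBA3-4 replicate 5 lay far above the other DMBA3-4 libraries for Fdft1 (31.8 CPM, the next library at 19.5), Cyp51 (52.9, next 26.2), Srebf2 (56.1, next 28.4) and Stard4 (15.1, next 10.4). In each case it remained below every DMSO3-1 library. DMBA3-4 replicate 6 lay far above its group for Scap (79.4 CPM, next 60.5).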

How the results depend on the processing

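Of 759 values of single genes under 23 alternatives, 741 kept their side of the threshold, those past it also their direction, 17 no longer passed it and 1 reversed. The reversal was Npc1, with a log2 fold change of 0.16 when DMSO3-1 replicates 2 to 5 were left out, and Npc1 lost its call without any 1 of 9 libraries (DMBA3-4 replicates 1, 2, 3, 5 and 6 and DMSO3-1 replicates 2 to 5), the adjusted p being at most 0.121. Members called lower numbered 19 to 21 and higher 1 in every alternative. Leaving out DMSO3-1 replicates 2 to 5 gave 4605 genes called in all (6918 otherwise) and a median log2 fold change of -1.51 over the 28 genes, with fewer libraries. Leaving out 1 library moved that median between -1.37 (DMBA3-4 replicate 6) and -1.09 (DMBA3-4 replicate 1), and the cause was not tested. The shared replicate numbers did not pair the libraries (correlations of deviations -0.16 to 0.13, 1 of 6 matching best with its own number), and with a replicate block 6481 genes were called, 21 of the 28 lower and 1 higher. The alternatives for the other pathway genes were added after the data were seen. Depth limits Idi1 and Tm7sf2, which had few counts, and Ch25h, which had 0 to 5 counts per DMSO3-1 library.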
